A study of Mus musculus with 30 samples.

Results

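The muscle nicotinic acetylcholine receptor is encoded by 5 genes, Chrna1, Chrnb1, Chrnd, Chrng and Chrne, taken here by symbol from the 17420 genes of the deposited expression table. Levels were read in quadriceps muscle of 15 male mice aged 4 months, with 3 animals in each of 5 groups. On the B6;129 background these were Gaa WT (wild type) and Gaa KO (knockout) mice. On the B6;129;DBA2/J background, whose genotype labels also carry Ltbp4D36/D36 in every animal, they were Gaa WT, Gaa KO and treated Gaa KO mice. The treated animals had received AAV9-sp7-8-hGAAco, a vector encoding secreted human GAA under a liver-muscle promoter (LiMP), into the temporal vein at postnatal day 1 to 2; the other groups were untreated. The product of Gaa is the glucosidase that breaks down glycogen in lysosomes, and its loss models Pompe disease. The names B6129 and mixed are used below for the 2 backgrounds. Every B6129 library belongs to a column series A and every mixed library to a series B, so effects of background and of series cannot be told apart.

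The receptor is the ion channel through which acetylcholine released by the motor nerve excites the muscle fibre. Each receptor is a pentamer with a pair of alpha subunits (Chrna1), a beta (Chrnb1), a delta (Chrnd) and either a gamma subunit (Chrng), in the embryonic form, or an epsilon subunit (Chrne), in the adult form. In innervated adult muscle the subunit genes are transcribed mainly by the nuclei under the synapse, and loss of nerve activity is known to raise alpha, beta, delta and gamma transcripts along the whole fibre through E-box-binding myogenic factors such as myogenin.

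All 5 genes were measured in all 15 quadriceps libraries. Expression is given as the deposited signal, a library-size-scaled read count in which 1 read is worth 0.0329 to 0.072 depending on the library. The quadriceps libraries held 1.69e+07 to 3.71e+07 reads (median 2.67e+07). Differences are of log2(signal + 0.5) with their SE from a limma fit to all 15 libraries. A gene is called changed at a Benjamini-Hochberg adjusted p under 0.05 over the 14113 genes tested. Chrng passed the filter for testing (3 or more libraries with a signal of 1 or more) only through the untreated KO libraries, and its calls were the same with no filter. Mouse Gaa, which checks the genotype labels, had a mean of 275 ± 29 in the B6129 WT and 15.8 ± 0.426 in the B6129 KO group. Its mean was 213 ± 42.7 in mixed WT, 14.9 ± 2.91 in mixed KO and 18.0 ± 0.913 in treated KO (SD, n = 3 each). Markers of the muscle fibre were abundant in every library, with Ckm, the muscle creatine kinase, at a group mean of at least 2.29e+04. In whole tissue, fewer cells of a type and less RNA per cell cannot be told apart.

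The subunit genes lie on 3 chromosomes (GRCm38, GENCODE vM21). Chrna1 is at chr2:73563215-73580338 on the minus strand with 9 exons. Chrnb1 is at chr11:69784036-69795943 and Chrne at chr11:70614883-70619216, both on the minus strand, with 11 and 12 exons. Chrnd, at chr1:87190607-87200070 with 11 exons, and Chrng, at chr1:87204657-87212694 with 12 exons, follow each other on the plus strand, 4586 bases apart. A protein-coding gene, 4930544D05Rik, lies on the opposite strand within the span of Chrne, at chr11:70615848-70616890. It had a mean signal of 1.4 to 2.73 over the 5 groups, against 12.9 to 19.7 for Chrne. No strand setting is stated, so reads of Chrne within this span and reads of this gene cannot be told apart.

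The promoters of 4 of the 5 members were found in the RefSeq promoter table (GRCm38.p6); Chrnd was not matched. They are printed to show the E-boxes (CANNTG, the site form bound by myogenic factors) before the gamma and epsilon genes, whose balance is followed below, and before alpha and beta. Each runs 5′ to 3′ on the gene's strand and stops short of annotated exons; capitals mark E-boxes and, in Chrne, also the letters CCGGAA, the core of the N-box through which Gabpa-type factors act at synaptic nuclei.
Chrna1: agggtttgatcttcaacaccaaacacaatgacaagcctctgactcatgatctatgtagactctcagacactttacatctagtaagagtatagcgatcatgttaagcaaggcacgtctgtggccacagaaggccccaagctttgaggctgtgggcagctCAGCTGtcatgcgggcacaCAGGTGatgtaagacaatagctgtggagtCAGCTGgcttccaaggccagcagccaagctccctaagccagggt
Chrnb1: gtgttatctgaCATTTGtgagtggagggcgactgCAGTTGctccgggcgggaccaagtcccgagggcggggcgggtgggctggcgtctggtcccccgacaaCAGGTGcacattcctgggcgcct
Chrng: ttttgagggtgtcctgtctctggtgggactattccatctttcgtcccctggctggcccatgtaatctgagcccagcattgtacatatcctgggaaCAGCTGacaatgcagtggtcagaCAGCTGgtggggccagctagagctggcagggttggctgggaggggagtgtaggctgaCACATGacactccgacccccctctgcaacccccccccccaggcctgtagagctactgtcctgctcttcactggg
Chrne: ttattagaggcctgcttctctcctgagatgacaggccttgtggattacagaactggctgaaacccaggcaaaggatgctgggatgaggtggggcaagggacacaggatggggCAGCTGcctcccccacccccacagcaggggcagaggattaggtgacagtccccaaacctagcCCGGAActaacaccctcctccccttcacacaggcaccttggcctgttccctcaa

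These stretches lie at chr2:73580339-73580588 (minus strand) for Chrna1, chr11:69795944-69796067 (minus) for Chrnb1, chr1:87205561-87205809 (plus) for Chrng and chr11:70619217-70619444 (minus) for Chrne. The RefSeq start used for Chrng lies inside the longer GENCODE gene. In the full 250 bases before the start, searched on both strands, Chrna1, Chrnb1 and Chrng each held 3 matches to CANNTG, and Chrne held 1. At least 3 matches were present in 12.2% of the 32851 RefSeq windows of the same length, and at least 1 in 66.2%. The E-box form CAGCTG, itself a CANNTG match, occurred 2 times in Chrna1, starting 92 and 44 bases before the start, and 2 times in Chrng, at 155 and 132 bases. It occurred 1 time in Chrne, at 138 bases, and had no match in the Chrnb1 window. At least 2 CAGCTG matches were present in 1.26% of all windows and at least 1 in 13%. CCGGAA was found in the Chrne window, 76 bases before the start, and not in the other 3; 12% of all windows held it. These are letter matches only and no binding was measured.

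In Gaa KO quadriceps the alpha, beta, delta and gamma transcripts were higher than in WT on both backgrounds, while the epsilon transcript was called higher on the mixed background only and differed by -0.03 ± 0.19 on B6129. Of the 5 members, 4 were called higher and 0 lower on B6129, where 16.7% of all tested genes were called higher and 19% lower. On the mixed background 5 were called higher and 0 lower, against 17.1% and 22.3% of all genes. The libraries of the groups did not overlap for 4 members on B6129 and 5 on the mixed background, shares to be read against 53.9% and 46.4% of all genes. The median difference over the 5 members was 2.06 and 2.27, against -0.02 and -0.04 over all genes.

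**Figure D1:**
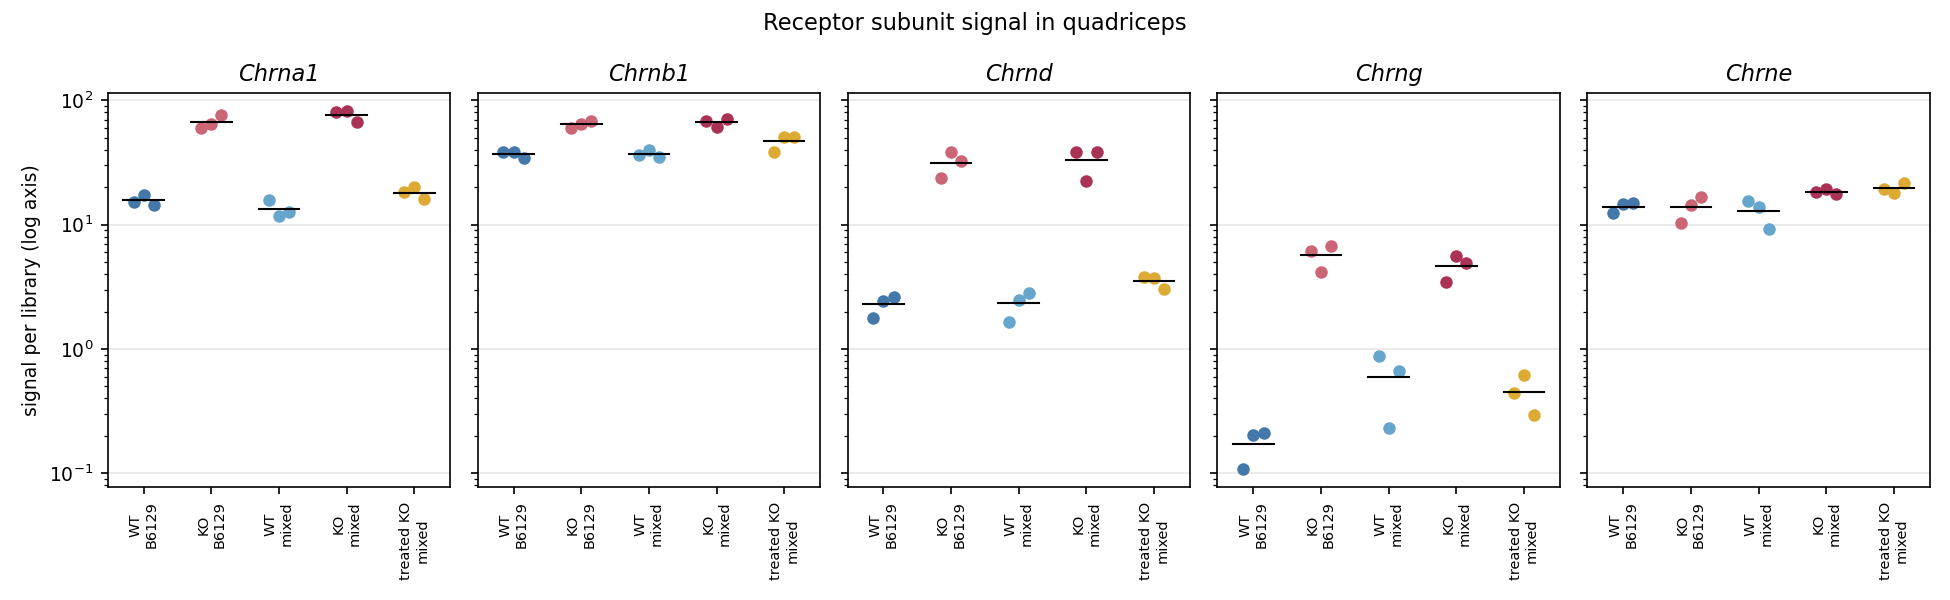
Signal of each receptor subunit gene in each of the 15 quadriceps libraries (log axis); points are libraries, 3 per group, and lines are group means. The untreated KO libraries of both backgrounds stand above all WT and treated libraries for Chrna1, Chrnb1, Chrnd and Chrng, whereas the groups of Chrne lie close together between 9.19 and 21.8.

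Chrna1 encodes the alpha subunit, which carries most of the acetylcholine binding site. Its signal was 15.3, 17.3 and 14.5 in the WT and 60.0, 65.1 and 76.6 in the KO libraries on B6129. Mixed libraries had 15.8, 11.7 and 12.7 in WT, 80.0, 81.6 and 66.9 in KO, and 18.3, 20.0 and 16.0 in treated KO. Every untreated KO library lay above every other library, and every treated library lay just above the WT libraries of its own background. KO exceeded WT by 2.06 ± 0.13 on B6129 (4.17-fold, limma adjusted p = 2.11e-07) and by 2.47 ± 0.13 on the mixed background (5.54-fold, limma adjusted p = 6.69e-08).

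Chrnb1, the beta subunit, had the smallest of the KO differences that were called on both backgrounds. Its B6129 signal was 38.3, 38.2 and 34.3 in WT and 59.7, 64.7 and 68.5 in KO. In mixed animals it was 36.1, 40.2 and 35.0 in WT, 68.8, 60.9 and 71.0 in KO, and 38.6, 50.8 and 50.8 in treated KO. The KO libraries lay above WT without overlap, and 1 treated library lay within the WT range while the other 2 lay above it. The difference was 0.79 ± 0.11 on B6129 (1.73-fold, limma adjusted p = 9.57e-05) and 0.84 ± 0.11 on the mixed background (1.79-fold, limma adjusted p = 5.26e-05).

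Chrnd, the delta subunit, forms the interface at one of the 2 acetylcholine sites with alpha. Its signal was 1.76, 2.45 and 2.63 in WT and 23.8, 38.7 and 32.3 in KO on B6129. Mixed animals had 1.66, 2.49 and 2.83 in WT, 38.7, 22.4 and 38.1 in KO, and 3.80, 3.73 and 3.01 in treated KO. The WT libraries of both backgrounds covered nearly the same range, and the lowest KO library stood far above the highest WT or treated one. The differences of 3.52 ± 0.24 (11.4-fold, limma adjusted p = 3.46e-07) and 3.55 ± 0.24 (11.7-fold, limma adjusted p = 4.02e-07) were the largest among the members on this scale. On recovered reads the B6129 order of delta and gamma turned, with DESeq2 giving 3.82 for Chrnd and 5.27 for Chrng.

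Chrng encodes the gamma subunit of the embryonic receptor. In WT muscle on B6129 it had 1, 3 and 4 reads (signal 0.108, 0.202 and 0.209), and in KO muscle 140, 95 and 205 reads (signal 6.13, 4.16 and 6.76). Mixed WT libraries had 13, 4 and 12 reads (signal 0.877, 0.231 and 0.662) and KO libraries 50, 107 and 81 (signal 3.49, 5.62 and 4.88). Treated KO libraries had 8, 9 and 4 reads (signal 0.440, 0.617 and 0.292). Each WT and treated library thus had 1 to 13 gamma reads, and each untreated KO library had 50 or more.

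KO exceeded WT for Chrng by 3.18 ± 0.26 on B6129 (limma adjusted p = 1.61e-06) and by 2.27 ± 0.26 on the mixed background (limma adjusted p = 2.25e-05). These differences are understated because the pseudocount of 0.5 is larger than most WT levels. From summed reads scaled by library size, KO was 38 times WT on B6129 (95% exact counting interval 19.1 to 88.6, 440 against 8 reads) and 8.77 times on the mixed background (5.95 to 13.4, 238 against 29 reads). These intervals cover counting error only, not the spread between animals.

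Chrne encodes the epsilon subunit, which replaces gamma in the adult receptor. Its signal was 12.5, 14.6 and 14.9 in WT and 10.4, 14.5 and 16.8 in KO on B6129. For mixed animals it was 15.5, 14.0 and 9.19 in WT, 18.3, 19.5 and 17.5 in KO, and 19.5, 17.9 and 21.8 in treated KO. The B6129 groups overlapped, and on the mixed background KO and treated libraries lay above WT and overlapped each other. The KO difference was -0.03 ± 0.19 on B6129 (limma adjusted p = 0.913) and 0.53 ± 0.19 on the mixed background (1.44-fold, limma adjusted p = 0.0376). The call on the mixed background was lost when any of the 3 KO libraries was left out (limma adjusted p = 0.0595 to 0.0961). Without WT library 4 the difference fell to 0.31 (limma adjusted p = 0.158).

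Whether the KO effect differed between the backgrounds was tested directly, and none of the 5 members was called in either direction, where 0.0992% of all genes were called with a higher effect on the mixed background and 0.184% with a lower one. With limma, 2 members had an unadjusted p under 0.05, as had 10.9% of all genes, and edgeR and DESeq2 also called 0. The estimates were 0.41 ± 0.19 for Chrna1 (limma adjusted p = 0.443), 0.56 ± 0.26 for Chrne (0.463) and -0.91 ± 0.37 for Chrng (0.374). Chrnb1 and Chrnd were at 0.05 ± 0.15 and 0.03 ± 0.34. The estimates that were not called thus span both signs, and these SEs leave room for sizeable differences in Chrng.

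WT animals of the 2 backgrounds were also compared with each other. Here 0 members were called higher and 0 lower (0 also with edgeR and with DESeq2), against 1.39% and 1.18% of all genes. At an unadjusted limma p under 0.05 there was 1 member, where 17.8% of all genes passed. Chrnb1 and Chrnd were nearly level, at 0.01 ± 0.11 and 0.01 ± 0.24. Chrng was at 0.65 ± 0.26 higher in mixed WT (limma adjusted p = 0.209) without overlap of the libraries (as for 21.9% of all genes), a ratio of 3.56 in summed reads (95% exact counting interval 1.59 to 9). That comparison rests on 29 against 8 reads and on samples of different series.

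Treated Gaa KO muscle had lower alpha, beta, delta and gamma transcripts than untreated KO muscle of the same background, while the epsilon transcript was not called (0.09 ± 0.19). Of the 5 members, 0 were called higher and 4 lower, where 23.6% of all genes were called higher and 17.1% lower. The libraries of the 4 called members did not overlap, as for 49.4% of all genes. The median difference was -2.04 over the members and 0.05 over all genes. This comparison uses the same 3 untreated KO libraries as the KO against WT comparison, so the directions of both are not independent.

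Between treated and untreated KO, Chrnd differed by -3.03 ± 0.24 (limma adjusted p = 1.07e-06), Chrng by -2.43 ± 0.26 (limma adjusted p = 8.98e-06) and Chrna1 by -2.04 ± 0.13 (limma adjusted p = 2.7e-07). Chrnb1 was lower by a smaller margin, -0.52 ± 0.11 (limma adjusted p = 0.00164). In summed reads the treated to untreated ratio of Chrng was 0.0885 (95% exact counting interval 0.0538 to 0.138). The order of delta and gamma turned on recovered reads, with -3.3 for Chrnd and -3.52 for Chrng by DESeq2. Chrne was at 0.09 ± 0.19 (limma adjusted p = 0.724), with overlapping libraries.

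**Figure D2:**
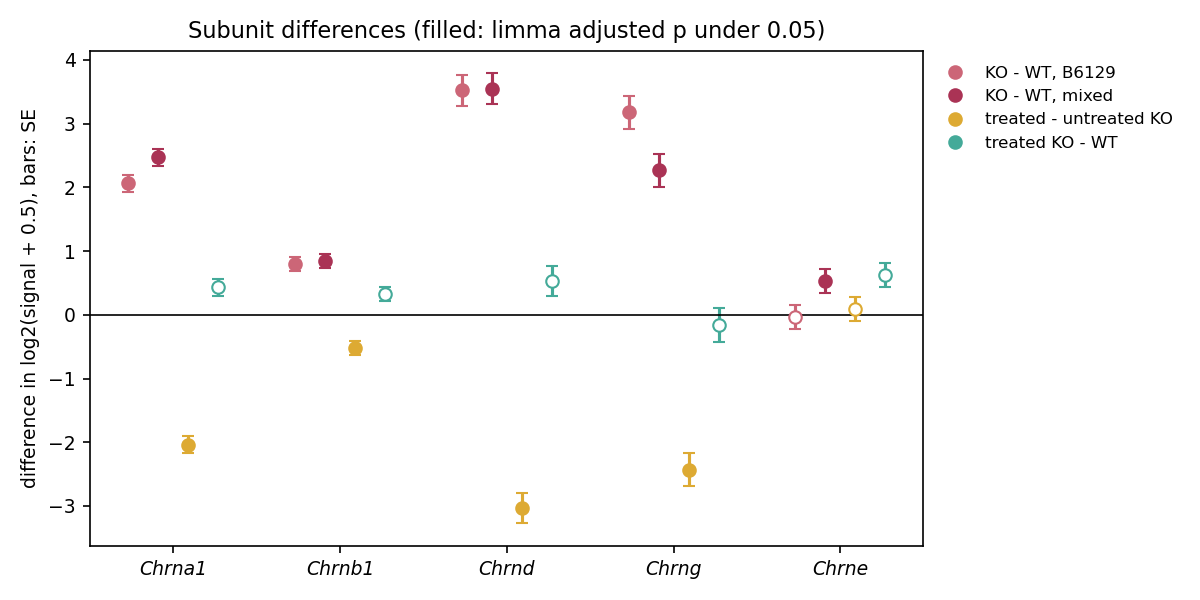
Differences in log2(signal + 0.5) for each subunit in 4 quadriceps comparisons; points are estimates from the limma fit, bars are SE, and filled points passed an adjusted p under 0.05. Chrna1, Chrnb1, Chrnd and Chrng stand above 0 in both KO comparisons and below 0 for treated against untreated KO, while no member is filled for treated KO against WT.

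Between treated KO and WT muscle of the mixed background, 0 members were called higher and 0 lower with limma, where 1.93% and 1.05% of all genes were called. At an unadjusted limma p under 0.05 there were 4 members, where 22% of all genes passed; edgeR called 0 and DESeq2 called 1, Chrne (0.60, DESeq2 adjusted p = 0.0394). The split of all called genes depended on the tool, with 64.8% higher by limma, 51.1% by edgeR and 50% by DESeq2. The point estimates of 4 members were above 0. Chrna1 was at 0.43 ± 0.13 (limma adjusted p = 0.0848) and Chrnd at 0.53 ± 0.24 (limma adjusted p = 0.219), both without overlap of the libraries. Chrne, at 0.62 ± 0.19 (limma adjusted p = 0.0793), did not overlap either, so 3 members did not overlap, where 23.9% of all genes did not. The gene that overlaps Chrne, 4930544D05Rik, was higher in the same comparison, at 2.73 ± 0.183 against 1.4 ± 0.235 (0.77 ± 0.17, limma adjusted p = 0.0276). Its part in the Chrne value was not tested. Chrnb1 was at 0.32 ± 0.11 (limma adjusted p = 0.109), and at 0.45 without treated library 21, where it was called (limma adjusted p = 0.0284). Chrng was at -0.16 ± 0.26 (limma adjusted p = 0.757), a ratio of 0.777 in summed reads (95% exact counting interval 0.421 to 1.41).

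The balance of the embryonic gamma and the adult epsilon transcript was followed within each library. Library scaling cancels in the share per kilobase, and only up to the pseudocount in the log2 ratio below. Per kilobase of exon, gamma made up 0.35%, 0.557% and 0.567% of gamma plus epsilon in WT muscle on B6129 and 19.3%, 10.4% and 14% in KO muscle. In mixed animals the share was 2.25%, 0.664% and 2.84% in WT, 7.19%, 10.5% and 10.2% in KO, and 0.908%, 1.38% and 0.54% in treated KO. Every untreated KO library was above every WT and treated library, and even there the epsilon transcript remained the more abundant of the pair, at 4.18 to 12.9 times gamma per kilobase.

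**Figure D3:**
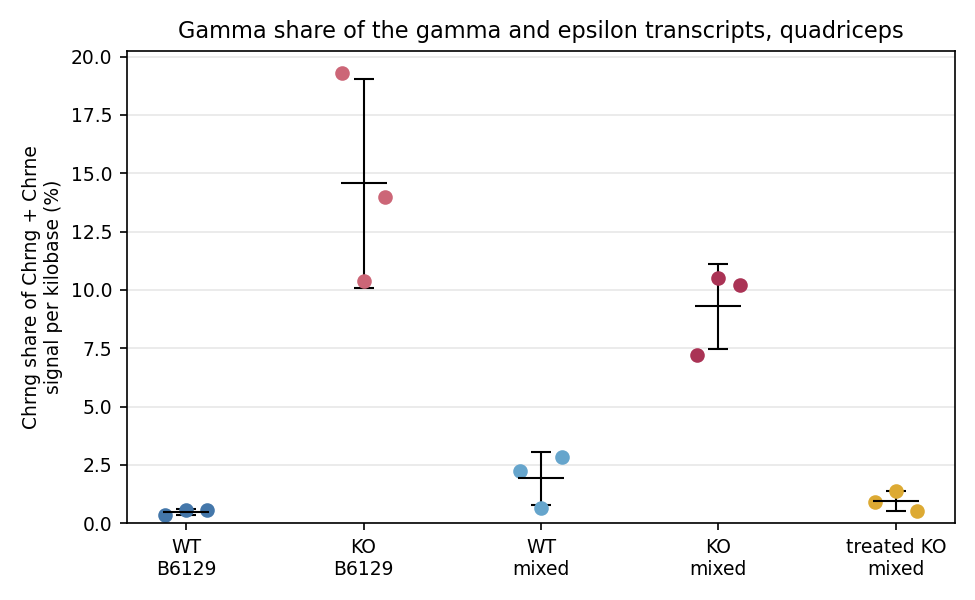
Share of Chrng in the sum of Chrng and Chrne signal per kilobase of exon, in percent, by library; points are libraries, horizontal bars group means and whiskers SD (n = 3). Means were 0.491% in WT and 14.6% in KO on B6129, and 1.92% in WT, 9.28% in KO and 0.943% in treated KO on the mixed background.

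The group means of this share were 0.491% ± 0.123 in WT and 14.6% ± 4.46 in KO on B6129 (SD, n = 3). They were 1.92% ± 1.13 in WT, 9.28% ± 1.82 in KO and 0.943% ± 0.421 in treated KO on the mixed background (SD, n = 3). As a log2 ratio of gamma to epsilon, the KO minus WT difference was 3.21 ± 0.28 on B6129 and 1.74 ± 0.4 on the mixed background, and the treated minus untreated KO difference was -2.53 ± 0.28. Each of these had an exact two-sided permutation p of 0.1, the smallest that 3 against 3 libraries allow (0.12 after adjustment over the 6 comparisons of this ratio). Permuting genotype within each background gave a mean KO difference of 2.48, higher in KO on both backgrounds, with an exact two-sided p of 0.005, the smallest of 400 arrangements (adjusted p = 0.03). Treated KO differed from mixed WT by -0.79 ± 0.43 (exact permutation p = 0.2, adjusted p = 0.2), and mixed WT from B6129 WT by 0.79 ± 0.37 (exact permutation p = 0.1, adjusted p = 0.12).

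The sizes of these ratios depend on the handling of the few gamma reads. The pseudocount of 0.5 exceeds the gamma signal of every B6129 WT library. Their ratios of -4.42, -4.43 and -4.44 therefore lie close together despite 1, 3 and 4 gamma reads, and the SE on B6129 may be too small. With recovered reads plus 0.5 in place of the signal plus 0.5, the KO difference was 5.10 on B6129 and 2.61 on the mixed background, and the treated difference was -3.51. With a pseudocount of 2 they were 1.83, 0.88 and -1.52.

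Set per kilobase of exon, the 5 transcripts can be placed on one scale. Their sum was 27.2 ± 1.1 in WT and 59.9 ± 7.08 in KO on B6129, and 26.2 ± 2.61 in WT, 65.9 ± 3.28 in KO and 35.4 ± 2.85 in treated KO on the mixed background (SD, n = 3). In WT muscle on B6129 the order per kilobase was Chrnb1 (14.6 ± 0.891), Chrne (8.28 ± 0.774), Chrna1 (3.58 ± 0.328), Chrnd (0.693 ± 0.138) and Chrng (0.0415 ± 0.0135), and no neighbours in this order came within their SDs of each other. In KO muscle on B6129 the order was Chrnb1 (25.4 ± 1.76), Chrna1 (15.3 ± 1.94), Chrnd (9.62 ± 2.27), Chrne (8.23 ± 1.92) and Chrng (1.36 ± 0.325). There Chrnd and Chrne did not differ beyond their spread.

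The make-up of this sum is given as a description and was not tested. On B6129 the alpha transcript went from 13.2% ± 0.695 of the sum in WT to 25.6% ± 1.33 in KO, and delta from 2.55% ± 0.498 to 16% ± 2.74. Over the same groups beta went from 53.7% ± 2.97 to 42.6% ± 2.32 and epsilon from 30.5% ± 2.7 to 13.6% ± 1.66. Gamma went from 0.152% ± 0.0483 to 2.3% ± 0.618. In these shares treated KO muscle stood close to mixed WT, with alpha at 11.7% ± 1.76 against 11.7% ± 1.8 and delta at 3.05% ± 0.58 against 2.75% ± 0.95. Epsilon was at 33% ± 3.57 against 28.8% ± 4.9, beta at 51.9% ± 4.04 against 56.2% ± 4.29 and gamma at 0.307% ± 0.111 against 0.548% ± 0.304. Untreated KO muscle of the mixed background had 26.4% ± 3.44 alpha, 15.2% ± 3.67 delta, 16.6% ± 1.63 epsilon, 40.1% ± 1.9 beta and 1.72% ± 0.475 gamma. The sum itself was 35.4 ± 2.85 in treated KO against 26.2 ± 2.61 in mixed WT.

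**Figure D4:**
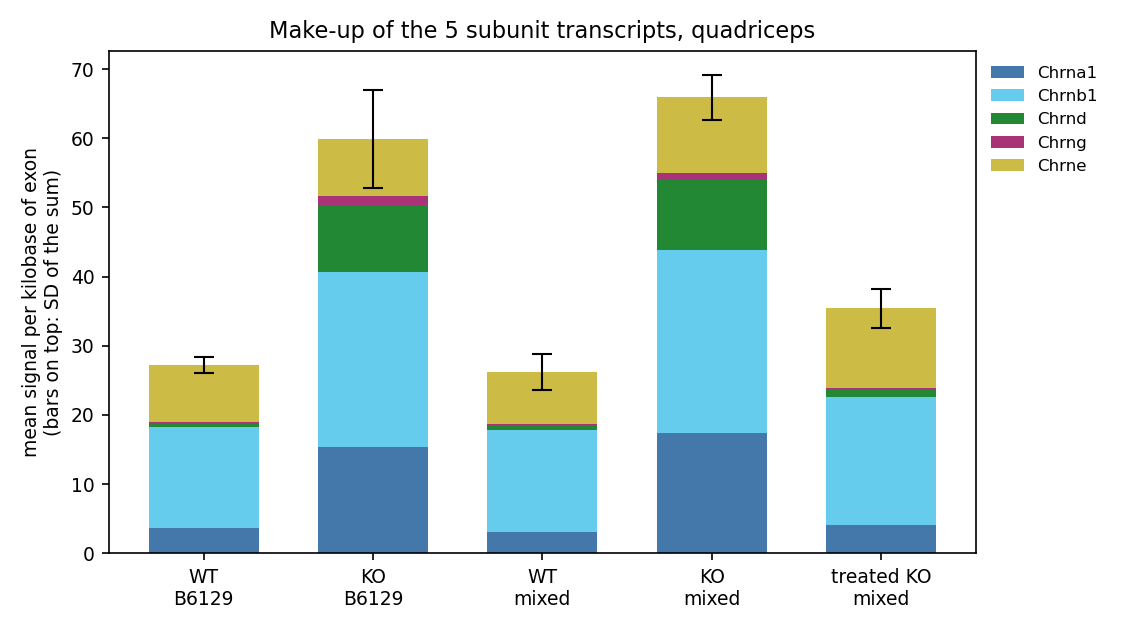
Mean signal per kilobase of exon of the 5 subunit transcripts, stacked by group; the whisker is the SD of the sum over 3 libraries. The stack is 59.9 and 65.9 high in the untreated KO groups against 27.2, 26.2 and 35.4 in the B6129 WT, mixed WT and treated KO groups, and the alpha and delta parts account for more of it in KO.

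Spinal cord of the same 15 animals served as a tissue that holds little of this receptor. Chrna1 ranged from 0.39 to 1.53 there (12 to 43 reads), Chrnb1 from 0.313 to 1.93 and Chrne from 0.0787 to 0.541 (2 to 15 reads). Chrnd had no read in 10 and Chrng no read in 12 of the 15 cord libraries, and neither exceeded 2 reads.

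Neuronal nicotinic subunits, which form receptors in nerve cells, were read beside the muscle subunits. Of 11 listed, 6 were in the table, and 3 of these reached the level for testing. Chrnb2 was higher in KO on the mixed background, at 1.3 ± 0.68 in KO and 0.472 ± 0.279 in WT (0.86 ± 0.3, limma adjusted p = 0.038) with overlapping libraries, and differed by 0.8 ± 0.3 on B6129 (limma adjusted p = 0.0545). No WT library reached a signal of 1 for Chrnb2 (highest 0.86 on B6129 and 0.743 on the mixed background). It thus passed the filter through KO libraries. The medians of the 3 were -0.23 and -0.46 for KO against WT, against -0.02 and -0.04 over all genes.

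Genes that place and hold the receptor under the nerve ending were read next. Of 18 endplate genes 16 were tested, of which 6 were higher and 2 lower in KO on B6129. On the mixed background 5 were higher and 2 lower. Over all genes 16.7% were higher and 19% lower on B6129, and 17.1% and 22.3% on the mixed background. The 2 lower are thus a smaller share than over all genes. The list medians were 0.06 and 0.17, against -0.02 and -0.04 over all genes. Colq, the collagen tail that anchors acetylcholinesterase, was 9.8 ± 1.22 in WT and 32.3 ± 7.56 in KO on B6129 (1.65 ± 0.2, limma adjusted p = 3.37e-05). Its mixed-background means were 9.64 ± 1.16 in WT, 35 ± 10.6 in KO and 12.9 ± 0.381 in treated KO. Erbb2, a receptor subunit for neuregulin, was 2.94 ± 0.0807 and 8.93 ± 0.319 on B6129 (1.46 ± 0.14, limma adjusted p = 4.99e-06). Scn4a, the sodium channel of adult muscle, was lower in KO, at 357 ± 23.9 against 631 ± 48.5 on B6129 (-0.82 ± 0.08, limma adjusted p = 9.76e-06). Gabpa, the factor of the N-box, was also lower, at 37.1 ± 0.987 against 48.6 ± 2.43 (-0.38 ± 0.07, limma adjusted p = 0.000991).

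Rapsn and Musk were picked out for their roles after their values were seen. Rapsn, which clusters the receptor, stood at 34 ± 4.45 in WT and 46 ± 1.59 in KO on B6129 (0.44 ± 0.09, limma adjusted p = 0.00271). This was a smaller difference than those of alpha and delta. Musk, the kinase that starts the clustering, was 12 ± 2.9 and 12.3 ± 2.41 (0.05 ± 0.32, limma adjusted p = 0.927). Between treated and untreated KO, 4 of the 16 endplate genes were higher (Agrn, Gabpa, Musk and Scn4a) and 2 lower (Colq and Erbb2). These counts are near the 23.6% higher and 17.1% lower over all genes. The list median was 0, against 0.05 over all genes. Between treated KO and WT, 2 of the endplate genes were higher, Etv5 and Scn4a, where 1.93% of all genes were higher. Scn4a was 800 ± 42.7 in treated KO and 555 ± 57 in WT (0.53 ± 0.08, limma adjusted p = 0.0101).

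The list of regulators known from denervated muscle holds the myogenic factors and the repressors of Myog. Of its 12 genes, all tested, 5 were higher and 2 lower in KO on each background. Over all tested genes 16.7% were higher and 19% lower on B6129, and 17.1% and 22.3% on the mixed background. The list medians were 0.44 and 0.53, against -0.02 and -0.04 over all genes. Myog, myogenin, which binds E-boxes, was 4.54 ± 1.72 in WT and 23.9 ± 2.82 in KO on B6129 (2.33 ± 0.25, limma adjusted p = 1.38e-05). Mixed-background means were 6.48 ± 2.44 in WT, 24.8 ± 1.6 in KO and 5.69 ± 0.618 in treated KO. Runx1, a transcription factor raised by denervation, was 2.18 ± 0.336 and 20.5 ± 2.18 on B6129 (2.97 ± 0.33, limma adjusted p = 1.84e-05). Ncam1, an adhesion molecule that spreads over denervated fibres, was 4.61 ± 0.841 and 33.1 ± 4.39 (2.73 ± 0.19, limma adjusted p = 3.46e-07). Gadd45a, a stress-response gene, was 18.3 ± 1.59 and 71.5 ± 6.05 (1.93 ± 0.22, limma adjusted p = 1.96e-05).

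The 2 genes of this list that were lower in KO on both backgrounds, no larger a share than over all genes, were Dach2 and Hdac5. Dach2 is known to hold back Myog in innervated muscle. Dach2 was named after its values were seen, with B6129 means of 8.08 ± 1.27 in WT and 2.71 ± 0.639 in KO (-1.43 ± 0.37, limma adjusted p = 0.00881). Between treated and untreated KO, 6 genes of the list were lower and 2 higher (median -0.45, against 0.05 over all genes). Over all genes 17.1% were lower and 23.6% higher there. Between treated KO and WT 1 gene of the list was called, Ncam1, higher at 6.4 ± 1.4 against 3.62 ± 0.83 (0.74 ± 0.19, limma adjusted p = 0.0493). Few genes were called in that comparison, 1.93% of all genes higher and 1.05% lower. The list median there was -0.05, against 0.02 over all genes.

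**Figure D5:**
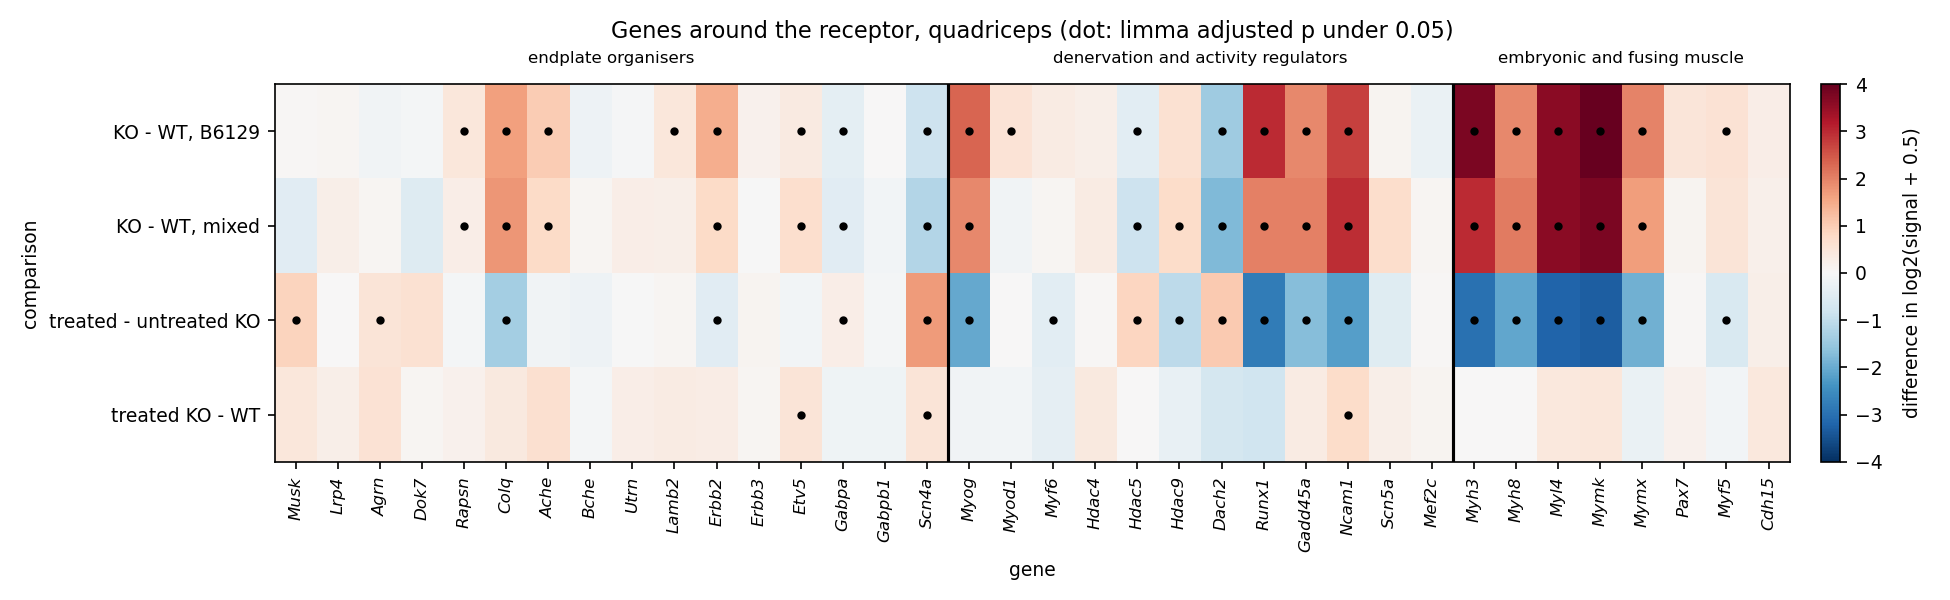
Differences in log2(signal + 0.5) for the tested genes of 3 lists around the receptor in 4 quadriceps comparisons; red is higher and blue lower in the first group named, and dots mark a limma adjusted p under 0.05. Myog, Runx1, Ncam1 and the embryonic genes Myh3, Myl4 and Mymk are red in both KO rows and blue for treated against untreated KO, while most endplate genes are pale.

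The gamma subunit belongs to embryonic muscle, so other genes of embryonic or fusing muscle were read beside it. Of 8 tested, 6 were higher and 0 lower in KO on B6129 and 5 and 0 on the mixed background (medians 1.94 and 1.88). Over all genes 16.7% were higher on B6129 and 17.1% on the mixed background (medians -0.02 and -0.04). In treated against untreated KO, 6 of the 8 were lower (median -2.01), where 17.1% of all genes were lower (median 0.05). Myh3, the embryonic myosin heavy chain, was 3.82 ± 1.22 in WT and 58.3 ± 16.8 in KO on B6129 (3.77 ± 0.26, limma adjusted p = 3.46e-07). Mymk, a membrane protein of myoblast fusion, was 0.313 ± 0.103 and 12.7 ± 3.21 (3.99 ± 0.26, limma adjusted p = 2.86e-07). Like Chrng, Mymk passed the filter only through the untreated KO libraries. Its highest signal was 0.432 in B6129 WT, 0.132 in mixed WT and 0.543 in treated KO. Its call and its place in the counts above carry that limit. WT levels of Mymk lie below the pseudocount of 0.5, so its difference is understated. Myl4, the embryonic myosin light chain, was 4.86 ± 0.86 and 67.1 ± 22.7 (3.62 ± 0.23, limma adjusted p = 2.11e-07). Myh8, the perinatal myosin, was 33.8 ± 7.61 and 128 ± 21.1 (1.92 ± 0.2, limma adjusted p = 1.12e-05). The median of the 8 between treated KO and WT was 0.08.

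Chaperones and folding enzymes that assemble the receptor in the endoplasmic reticulum were mostly higher in KO. Of 6 tested, 4 were higher (Calr, Canx, Pdia3 and Pdia4) and 1 lower (Ric3) on both backgrounds. Over all genes 16.7% were higher and 19% lower on B6129, and 17.1% and 22.3% on the mixed background. The list medians were 0.49 and 0.46, against -0.02 and -0.04 over all genes. Canx, calnexin, was 117 ± 15.7 in WT and 173 ± 3.44 in KO on B6129 (0.57 ± 0.09, limma adjusted p = 0.000198). Ric3, a chaperone of nicotinic receptors, was 3.17 ± 0.152 and 1.57 ± 0.286 (-0.84 ± 0.14, limma adjusted p = 0.000556). Of 5 glycosylation genes whose mutation causes congenital myasthenia, Dpagt1 was higher and Gfpt1 lower in KO on both backgrounds (medians 0.1 and 0.25). Counts of 1 gene each way are near the shares over all genes.

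Markers of other cells were read beside these results. Of 8 macrophage markers, 7 were higher in KO on B6129 and 6 on the mixed background, where 16.7% and 17.1% of all genes were higher. Where 17.1% of all genes were lower in treated than in untreated KO, 5 of these markers were. Their summed signal was 32.6 to 49.8 in B6129 WT, 127 to 152 in B6129 KO, 65.5 to 73.6 in mixed WT, 95.8 to 219 in mixed KO and 48 to 105 in treated KO, with every marker detected in every group. Among Schwann cell markers, Egr2, a factor of myelination, was 0.57 ± 0.387 in WT and 3.38 ± 0.689 in KO on B6129 (1.91 ± 0.27, limma adjusted p = 0.000148). Its mixed-background means were 1.03 ± 0.408 in WT and 2.48 ± 0.517 in KO (0.98 ± 0.27, limma adjusted p = 0.0124). Pmp22, a myelin protein, was 31 ± 0.544 in WT and 30.1 ± 0.443 in KO on B6129 (-0.04 ± 0.17, limma adjusted p = 0.883). In mixed animals it was 29.1 ± 3.45 in WT and 47 ± 10.8 in KO (0.67 ± 0.17, limma adjusted p = 0.00654). Only 2 of 8 neuron markers reached the level for testing, and Mnx1, a motor neuron factor, had no read in any quadriceps group. Among 8 muscle fibre markers, the shares called in KO were near those over all genes. Des was higher and Myh4 lower in KO on both backgrounds, and Ckm was also lower on the mixed background. The summed signal of the 8 was 1.74e+05 to 1.84e+05 in WT and 1.39e+05 to 1.54e+05 in KO on B6129. On the mixed background it was 1.75e+05 to 2.04e+05 in WT, 1.29e+05 to 1.5e+05 in KO and 2.11e+05 to 2.31e+05 in treated KO. The part of macrophage, Schwann cell or fibre content in the subunit differences was not tested.

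The tested genes whose pattern over the 15 quadriceps libraries was most like Chrng, by the root mean square difference of centred log2 values, were Gm830 (0.33), Fetub (0.36), C77080 (0.36), Gm12168 (0.37) and Ttc9 (0.38). Of these, Gm830, Fetub and Gm12168 had group means of 0.111 to 0.605 in the WT and treated groups, near or below the pseudocount of 0.5. Their untreated KO means were 3.02 to 7.47, so their likeness to Chrng carries the limit of low levels elsewhere. Ttc9 had group means of 8.2 and 55.4 in WT and KO on B6129, 9.84 and 44 on the mixed background and 7.06 in treated KO. For Chrne they were B3gntl1 (0.18), Naalad2 (0.18), Itm2c (0.2), Pdcd4 (0.2) and Cptp (0.21), all with small spreads between groups.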

How the data were processed

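RNA of quadriceps and spinal cord was sequenced from polyA libraries (NEBNext Ultra RNA, single-end, 61 bases), per the labels' protocols. The submitters' processing notes name cutadapt, RSEM, limma and edgeR on GRCm38, without versions or settings. The deposited table holds a linear signal for 17420 genes, equal to reads plus 0.5 over a scaled library size; 100% of values gave whole reads within 0.001. Values were taken as log2(signal + 0.5) and tested with limma 3.58.1 (R 4.3.3; eBayes with trend) in 1 fit of the 15 quadriceps libraries, after a filter of signal at least 1 in at least 3 libraries (14113 genes). Ratios of Chrng to Chrne were tested by exact permutation. Levels between genes were set per kilobase of the union of GENCODE vM21 exons. Alternatives were other pseudocounts and filters, quantile normalization, edgeR 4.0.16 and DESeq2 1.42.0 on recovered reads, fits of the compared groups only, and leaving out each library. Named genes were all 5 members, Gaa, the 4 called genes with the smallest adjusted p per list, the 5 genes most like Chrng and Chrne, and genes overlapping a member. The scripts were tested on simulated data. Members and lists were chosen with earlier results of these data known. The 3 libraries per group come from separate animals. Cord columns of treated animals could be matched only to their group. Counts and sums over the Schwann cell list are not reported here.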

Additional observations from a re-analysis of the deposited data

How the results depend on the processing

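The calls of Chrna1, Chrnb1, Chrnd and Chrng in both KO comparisons and in treated against untreated KO held under all 22 alternatives, with Chrng ranging from 1.81 to 5.27, 1.36 to 3.11 and -3.52 to -1.43. No paired analysis was possible because the quadriceps groups compared come from different animals and share fewer than 2 title numbers. Where a value below differs, the cause was not tested.

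Chrne on the mixed background was not called with no filter (0.53, limma adjusted p = 0.0501), with only the groups compared (0.53, limma adjusted p = 0.0758) or in 4 of the fits leaving out a library (0.31 to 0.67 over all such fits). Its B6129 difference turned to 0.01 with edgeR and 0.01 with DESeq2, and reached -0.18 to 0.16 with libraries left out. DESeq2 called Chrne for treated KO against WT (0.60), giving 1 member called; leaving out treated library 21 called Chrnb1 (0.45, where such fits gave 0.25 to 0.45), also 1. Signs also turned for differences near 0 when libraries were left out: Chrng for treated KO against WT (-0.43 to 0.03), Chrnb1 and Chrnd in the difference between backgrounds (0 to 0.11 and -0.15 to 0.29), and Chrnb1, Chrnd and Chrne between WT groups (-0.05 to 0.05, -0.13 to 0.2 and -0.29 to 0.08). Quantile normalization put Chrnb1 between WT groups at 0. The other differences of members kept direction and side of the threshold.

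The counts over all genes moved most where few were called. Treated KO against WT had 421 calls, 1028 with DESeq2, 17 with only the groups compared and 124 to 448 with a library left out. The difference between backgrounds had 40 calls, 203 with DESeq2, 10 with edgeR and 11 to 116 with libraries left out. WT against WT had 363, 786 with DESeq2, 156 with only the groups compared and 187 to 596 with libraries left out. With the longest transcript as length, the gamma share was 19.6% and 0.702% in KO and WT on B6129 and 12.8% in mixed KO. The 1 to 13 gamma reads per WT or treated library limit what can be said of its level there.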
